A study of Mus musculus with 6 samples.

Results

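The cells described here are Plvap+ Lrg1+ endothelial cells of mouse inguinal white adipose tissue (iWAT), 1074 barcodes out of 68103 in 6 single-cell RNA libraries. They were chosen by measured values. A barcode was a member if it held at least 1000 unique molecular identifiers (UMIs, the tags by which copies of the same captured transcript are counted once), under 10% mitochondrial UMIs, fewer than 30 UMIs of the fibroblast gene Dcn per 10000, at least 3 UMIs of the endothelial genes Cdh5, Pecam1 and Cldn5 together and at least 3 UMIs of Plvap and Lrg1 together, with none of the lymphatic genes Prox1 and Mmrn1. The 3980 barcodes that met every part of this rule except the one on Plvap and Lrg1 are called other blood endothelial cells, and both sets together are the 5054 blood endothelial cells. Of the barcodes near the limit, 526 held 1 UMI of Plvap and Lrg1 together, 163 held 2, 97 held 3, 68 held 4 and 909 held 5 or more. The median member had 21 such UMIs.

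The libraries came from male C57BL/6 mice of 9 weeks (young) or 57 weeks (aged), all of them acclimated to 30 °C for 3 weeks. A temperature treatment of 2 weeks, in single housing, followed. It was 30 °C throughout for thermoneutral (TN) libraries, ended with 3 days at 6 °C for 3D libraries, and was 6 °C for all 14 days for 14D libraries. The inguinal lymph node was removed from the fat pad, and live stromal vascular cells without the leukocyte antigen CD45 were sorted, so that mature adipocytes and most immune cells were depleted. There was 1 library for each age and temperature, and by the study's methods stromal cells of several mice were combined only where stated, with no such statement for these libraries. Tests therefore compared 3 aged with 3 young libraries, or the 3 temperatures with 2 libraries each, and their p-values measure the spread between libraries. Whether a change with age depends on temperature was not tested.

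Plvap encodes the protein that forms the diaphragms of endothelial fenestrae and caveolae, and Lrg1 encodes a secreted glycoprotein that modifies endothelial signalling by transforming growth factor beta. Plvap protein is abundant in venules and fenestrated capillaries, and Lrg1 is a marker of venular endothelium. Postcapillary venules are the vessels through which leukocytes leave the blood, and their endothelium stores P-selectin and von Willebrand factor and carries the chemokine-binding receptor Ackr1. Esm1 encodes a proteoglycan that binds vascular endothelial growth factor and is known from growing vessels, and Col13a1 a collagen anchored in the cell membrane. Blood capillaries of fat take up fatty acids with the help of Gpihbp1, which holds lipoprotein lipase, Cd36 and the binding proteins Fabp4 and Fabp5.

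In GRCm38 coordinates Plvap lies at chr8:71497765-71511752, Lrg1 at chr17:56119678-56122001, Esm1 at chr13:113209659-113218098 and Col13a1 at chr10:61838236-61979108, all as protein-coding genes. Levels are given as UMIs per 1000000 UMIs of the cells summed in a library (CPM), and 3 values in a row are those at TN, 3D and 14D. Plvap, which helped to choose the cells, was at 4499, 3368 and 3824 in young and 3471, 2751 and 2493 in aged libraries. Lrg1, also part of the rule, was at 1122, 764 and 998 in young and 996, 692 and 814 in aged libraries. The rule did not use the other 2 given markers. Esm1 was at 248, 124 and 227 in young and 290.2, 100.4 and 169.5 in aged libraries, against 0 to 4.06 in other blood endothelial cells. Col13a1 was at 439, 336 and 364 in young and 399, 243 and 250.1 in aged libraries, against 0 to 4.06 in the others. Both markers were thus far higher in the members in every library.

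Among genes with at least 50 CPM in the members, those with the largest ratio to other blood endothelial cells in their least different library were Col13a1, Gm5, Esm1, Slco2a1, Penk, Itm2a, Selp, Ces2e, Tmem35a, Ramp3, Fam167b, Ackr1, Ehd4, H2-M9 and Exoc3l2. These are descriptions without a test, because the same cells were used to choose the members. A gene with fewer than 3 UMIs in the other cells of a library was set there to 3 UMIs. Slco2a1, which carries prostaglandins into cells, was 27.4 to 139 times as high in the members, depending on the library. Itm2a, a membrane protein, was 23.8 to 75.0 times as high, and Ehd4, an endosomal protein, 11.1 to 23.3 times. Penk encodes the precursor of the enkephalins. Its ratio was 25.4 to 149. In the other direction the capillary gene Car4, a carbonic anhydrase on the cell surface, was 5.17 to 22.2 times as high in the other blood endothelial cells. Bmp6 was 4.87 to 17.1 and lipoprotein lipase (Lpl) 3.56 to 5.16 times as high there. Adipocyte transcripts also stood among the genes higher in the other cells, with Car3 at a ratio of 4.95 to 9.59, Cfd at 4.29 to 8.57 and Retn at 3.65 to 7.99. Median UMIs per cell were 4304 to 6360 in the members and 2642 to 3319 in the others.

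The members were not 1 kind of venular cell. To compare cells at equal depth, 1034 members with at least 2000 UMIs were thinned to 2000. Of these, 142 (13.7%) held a UMI of the venular genes Ackr1, Selp, Vwf or Sele, and 502 (48.5%) held a UMI of Esm1 or Col13a1. Only 10 held both, and 400 held neither. Esm1 or Col13a1 was found in 7.04% of the members with a venular gene and in 55.2% of the members without one. Among other blood endothelial cells at the same depth, 3.19% held a venular gene and 0.483% held Esm1 or Col13a1, and Sele was found in 0 of 3108 such cells, where the exact binomial 95% interval for cells with a UMI at this depth reaches 0.119%. At this depth a cell that expresses a gene can lack a UMI of it. The name venular thus described a minority of the members by the UMIs of these genes, and the cells are called Plvap+ Lrg1+ here.

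Genes that were not used for this sorting also differed between the 2 sets of members, as descriptions without a test. At full depth 606 members held Esm1 or Col13a1 and no venular gene, 175 held a venular gene and neither Esm1 nor Col13a1, 49 held both and 244 held neither. Itm2a was at 1204, 767 and 1003 in young and 1035, 575 and 781 in aged libraries in the Esm1 or Col13a1 cells. In the cells with venular genes it was at 20.3, 5.80 and 32.1 in young and 19.8, 4.73 and 0 in aged libraries, so that the libraries of the 2 sets did not overlap. Ednrb, the endothelin receptor type B, was at a ratio of 8.67 to 16.2, and Kdr, the main receptor for vascular endothelial growth factor, of 3.18 to 6.76, both higher in the Esm1 or Col13a1 cells in every library. Cxcl12, a chemokine, was at a ratio of 4.24 to 9.56 and Igfbp7 of 3.31 to 5.52. Penk was nearly confined to this set, with 61.2 to 624 CPM against 0 to 6.42.

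In the cells with venular genes Vcam1, the adhesion molecule that binds leukocyte integrins, was at 115, 116 and 231 in young and 179, 284 and 196 in aged libraries, against 0 to 8.20 in the Esm1 or Col13a1 cells. Aqp1, a water channel, was at 1749, 2785 and 1002 in young and 2579, 2916 and 1846 in aged libraries, against 54.6 to 328. Fmo2, a flavin-containing monooxygenase, was 3.75 to 19.04 times as high as in the Esm1 or Col13a1 cells, and Fmo1 4.33 to 9.56 times. Cldn5, a tight junction gene that is part of the rule, was 9.77 to 69.1 times as high. The members with neither group of genes were nearer to the other blood endothelial cells in capillary genes. Car4 was at 178 to 488 CPM in them, at 2.69 to 46.2 in the Esm1 or Col13a1 cells and at 639 to 882 in other blood endothelial cells. Gpihbp1 was at 2351 to 3373 in the same cells with neither, 768 to 1329 in the Esm1 or Col13a1 cells and 3331 to 4343 in the others. Median UMIs per cell were 4321 to 6974 in the Esm1 or Col13a1 cells, 4128 to 6968 in the cells with venular genes and 3755 to 4731 in those with neither, and at lower depth a marker is missed more often.

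**Figure D1:**
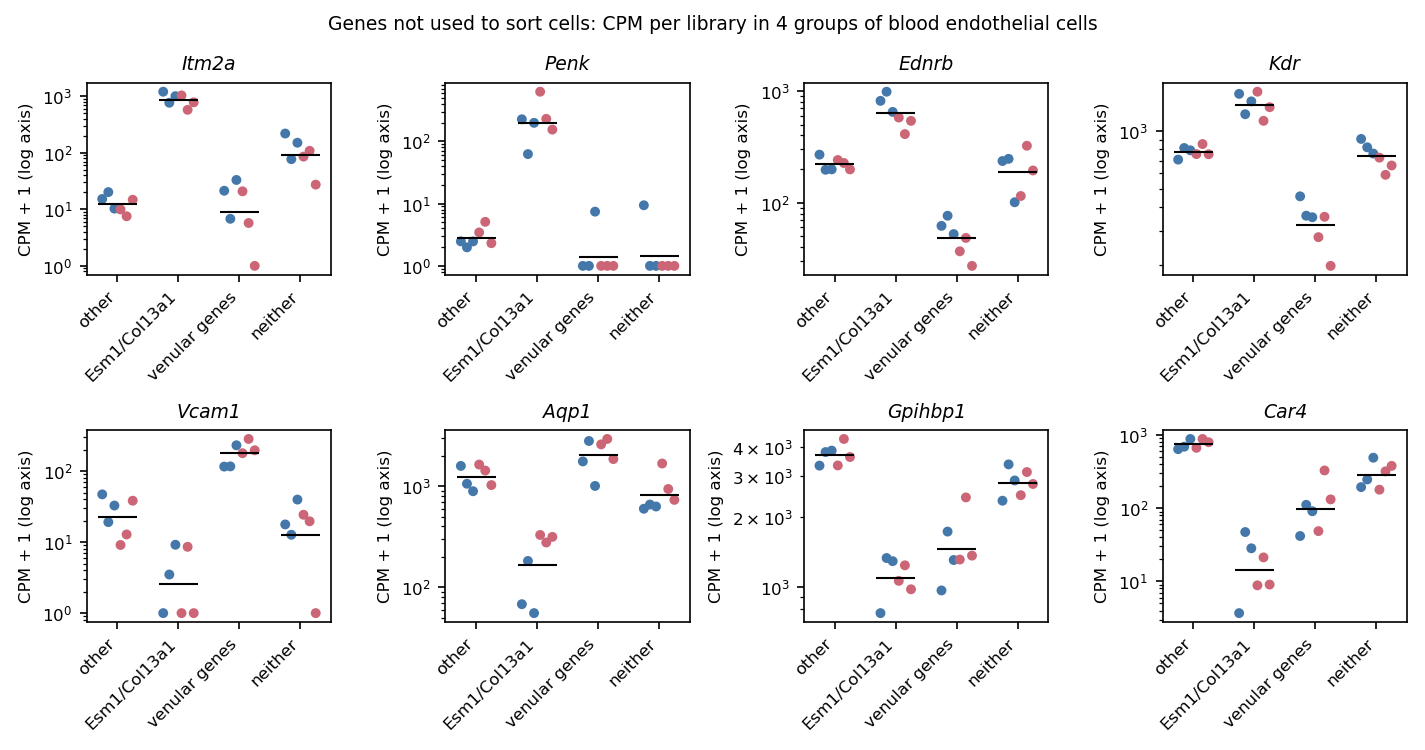
CPM plus 1 on a log axis for 8 genes in 4 groups of blood endothelial cells; each point is 1 library (blue young, red aged), and the black line is the mean of the log values. Itm2a, Penk, Ednrb and Kdr were higher in the members with Esm1 or Col13a1 than in those with venular genes in every library, and Vcam1 and Aqp1 were higher in those with venular genes.

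Total UMIs per library ranged from 52068837 to 88508349 and median UMIs per barcode from 2588 in the aged 14D library to 8954 in the young TN library. Summed over members, libraries held 359843 to 1774769 UMIs from 65 to 344 cells, the fewest in the aged 14D library. No member barcode was shared between libraries, and pairs of libraries shared 30 to 44 barcodes of all. Many member barcodes also carried RNA of a second cell type. At least 3 UMIs of the mural cell genes Rgs5, Kcnj8, Abcc9, Higd1b and Myh11 together were found in 30, 43 and 32 members of the young libraries and in 42, 27 and 10 of the aged libraries, which is 18.9, 26.9 and 15.9 in young and 12.2, 18.6 and 15.4 in aged libraries as a percentage. Other blood endothelial cells carried such UMIs in 6.70 to 13.3%. In all, 192 members held at least 3 UMIs of genes of mural cells, of fibroblasts (Pdgfra, Pi16 and Dpp4) or of leukocytes (Ptprc, Csf1r, C1qa, Cd3e and Cd79a), and main values below are also given without them. No doublet caller was run. Median mitochondrial shares were 3.76 to 4.74% in the members and 2.06 to 3.202% in the others. The summed level of the 7 pericyte markers in other blood endothelial cells was 671, 1041 and 541 in young and 507, 698 and 663 in aged libraries. In the members it was 656, 879 and 536 in young and 437, 716 and 567 in aged libraries. Without those 192 barcodes it was 58.4, 86.0 and 56.7 in young and 26.3, 55.0 and 64.9 in aged libraries. Rgs5, Kcnj8, Abcc9 and Higd1b are among these markers and also chose the barcodes left out, so this sum had to fall without them.

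The members made up a smaller part of blood endothelial cells in every aged library than in any young library. Their share was 23.2% (159 of 684 cells, 95% interval 20.1 to 26.6), 25.3% (160 of 633) and 25.2% (201 of 798) in the young libraries. In the aged libraries it was 21.7% (344 of 1587), 16.8% (145 of 865) and 13.3% (65 of 487, 95% interval 10.4 to 16.7). The intervals are exact binomial ones and cover counting error only. Means were 24.6% ± 1.15 (SD, n = 3) in young and 17.3% ± 4.19 (SD, n = 3) in aged libraries. The exact two-sided permutation test gave p = 0.1, which is the smallest value that 3 against 3 libraries can give. Temperature was not taken into account in this test or in those of the next paragraph, and each SD spans the 3 temperatures. With every cell thinned to 2000 UMIs the share was 18.7, 19.4 and 20.4 in young and 18.2, 11.0 and 8.67 in aged libraries, in percent, so that the young TN and aged TN libraries differed little at equal depth. As a part of all barcodes that passed the limits on UMIs and mitochondrial UMIs, the members were at 1.75, 1.54 and 1.80 in young and 3.41, 1.39 and 0.650 in aged libraries, in percent, and the ages overlapped, while blood endothelial cells were 15.7% of the aged TN library and 4.87 to 8.27% of the others.

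Within the members, the part with a venular gene at 2000 UMIs was 10.5, 10.7 and 13.0 in young and 13.7, 18.0 and 22.2 in aged libraries, in percent. It was higher in every aged library than in any young library, with means of 11.4% ± 1.39 (SD, n = 3) and 18.0% ± 4.27 (SD, n = 3) and p = 0.1 in the exact permutation test. From 14 to 45 cells a library stood behind these values. The part with Esm1 or Col13a1 was 55.9, 43.4 and 56.2 in young and 52.0, 36.7 and 28.6 in aged libraries, in percent. There the aged TN library lay above the young 3D library, and the exact permutation test gave p = 0.2. Adjusted over the 3 shares of this and the previous paragraph, no p could pass 0.05. The set of members was thus composed differently from library to library, and fits on the Esm1 or Col13a1 cells alone, which were added after seeing the data, are given beside the fits on all members.

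**Figure D2:**
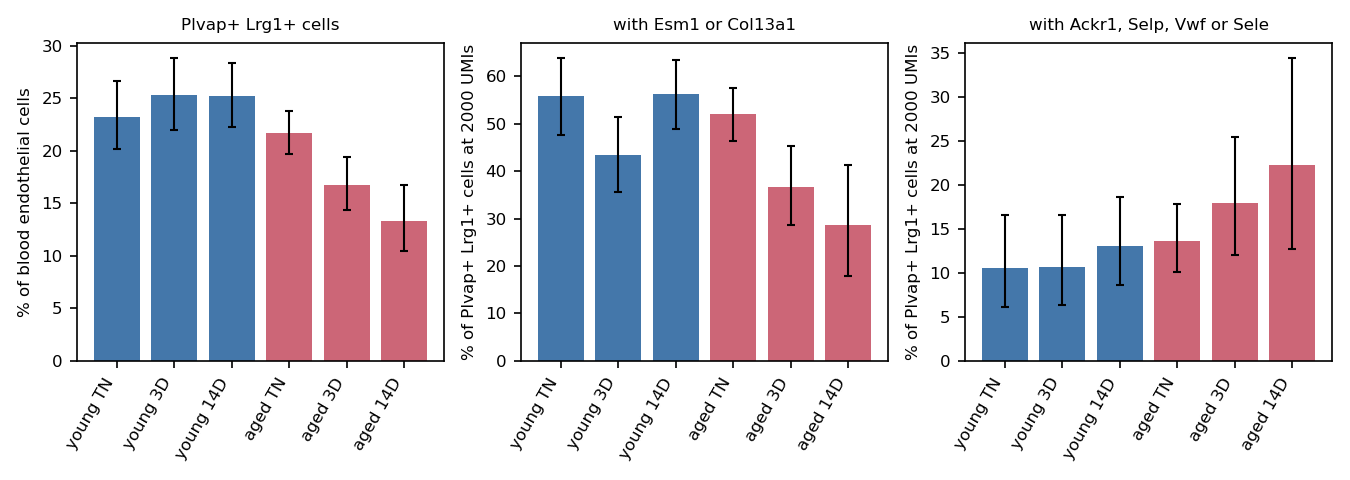
Bars give, for each of the 6 libraries (blue young, red aged), the percentage of Plvap+ Lrg1+ cells among blood endothelial cells and the percentages of them with Esm1 or Col13a1 and with Ackr1, Selp, Vwf or Sele at 2000 UMIs; error bars are exact binomial 95% intervals. The first share is lower in each aged library than in any young one, and the last is higher.

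With age, genes of the basement membrane, the sheet of collagen IV, laminin and perlecan on which endothelium rests, fell in the members. Of 9069 genes tested, 288 (3.18%) changed with age at an adjusted p under 0.05, 146 (1.61%) higher and 142 (1.57%) lower in aged libraries (edgeR quasi-likelihood test in a model of age and temperature, with Benjamini-Hochberg adjustment over all genes tested). All 16 genes of a basement membrane list were tested, and 7 of them fell while 0 rose. Their median log2 fold change was -0.41, beside 0.0010 over all genes tested. Without the barcodes with RNA of a second cell type, 36 of 7428 genes (0.485%) passed, 4 of them from this list. The number of genes called also moved with the libraries used, from 70 without the aged 3D library and 72 without the young 3D library to 446 and 451 without the aged and the young 14D library. No gene passed with edgeR when 63 members a library were thinned to 2000 UMIs each, of 2617 genes tested (183 at an unadjusted p under 0.05).

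Col4a1 and Col4a2 encode the 2 chains of the main collagen IV of vessels. Col4a2 (chr8:11312805-11449287) was at 567, 429.7 and 520.4 in young and 336, 258 and 347 in aged libraries, and the ages did not overlap. Its log2 fold change was -0.66 ± 0.10 (SE, n = 3 libraries per age, edgeR adjusted p = 4.4e-04). Without barcodes of 2 types it passed as well, with an adjusted p of 0.00322. Col4a1 (chr8:11198423-11312826) was at 740.1, 589 and 783 in young and 588, 401 and 603 in aged libraries, with the aged 14D library inside the young range. Its log2 fold change was -0.38 ± 0.09 (edgeR adjusted p = 0.0243). Both also passed in the Esm1 or Col13a1 cells alone (adjusted p = 0.0290 for Col4a1 and 0.00309 for Col4a2).

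The 2 genes lie head to head on chromosome 8 and are transcribed in opposite directions, so their promoter windows overlap. The windows are shown because both genes fell together. They run from 250 bases before to 50 after the annotated start (RefSeq, GRCm38.p6), 5′ to 3′ on each gene's own strand, and capitals mark the 78 bases that both windows hold (chr8:11312777-11312854).
Col4a1, chr8:11312777-11313076, minus strand: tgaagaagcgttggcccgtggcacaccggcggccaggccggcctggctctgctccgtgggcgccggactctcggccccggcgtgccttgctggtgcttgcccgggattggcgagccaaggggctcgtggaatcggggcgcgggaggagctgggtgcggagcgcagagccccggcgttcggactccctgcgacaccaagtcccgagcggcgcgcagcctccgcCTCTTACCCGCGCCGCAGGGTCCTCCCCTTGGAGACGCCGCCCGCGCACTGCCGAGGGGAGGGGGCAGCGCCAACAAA
Col4a2, chr8:11312555-11312854, plus strand: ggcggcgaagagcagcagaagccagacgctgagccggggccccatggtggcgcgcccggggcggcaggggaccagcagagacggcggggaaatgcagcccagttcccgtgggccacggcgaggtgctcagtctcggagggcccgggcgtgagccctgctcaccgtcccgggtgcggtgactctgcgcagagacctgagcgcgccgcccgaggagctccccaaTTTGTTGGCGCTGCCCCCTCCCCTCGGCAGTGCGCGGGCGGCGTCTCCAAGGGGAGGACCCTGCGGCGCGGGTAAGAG

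Sparc, a collagen-binding matrix protein, was at 3665, 3248 and 3867 in young and 2095, 1858 and 2654 in aged libraries, with all aged libraries below the young. It changed by -0.68 ± 0.08 on the log2 scale (edgeR adjusted p = 1.5e-05). Col15a1, a collagen at the outer face of the basement membrane, was at 432, 362 and 419.5 in young and 321, 155 and 286 in aged libraries and changed by -0.68 ± 0.13 (adjusted p = 0.00303), also without overlap between ages. Lamb1, a laminin chain, changed by -0.68 ± 0.14 and Hspg2, which encodes perlecan, by -0.41 ± 0.11. Fn1, the gene of fibronectin, changed by -1.21 ± 0.18. Col4a1, Col4a2, Col15a1 and Sparc passed without barcodes of 2 types, and Lamb1, Hspg2 and Fn1 did not (adjusted p = 0.137, 0.0528 and 0.110). In members with mural cell UMIs Sparc was at 3609 CPM and Col4a2 at 454, and in members of 1 type at 2527 and 395. The 9 genes of the list that did not pass include Lama5, at 0.35, Lamb2, at 0.28, and Nid2, at -1.05. In the other blood endothelial cells Col4a2 was at 527, 556 and 772 in young and 381, 349.9 and 535 in aged libraries and Sparc at 3466, 3898 and 5318 in young and 2188, 2342 and 3665 in aged libraries, and no difference between the 2 populations passed the test for either gene.

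**Figure D3:**
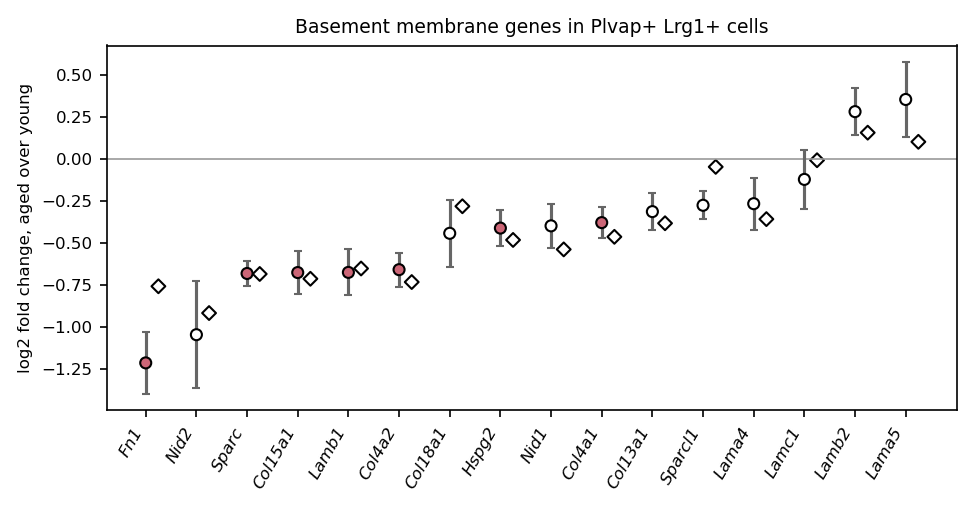
Log2 fold change of aged over young libraries for the 16 basement membrane genes in Plvap+ Lrg1+ cells; circles give all members with their SE, red where the adjusted p is under 0.05, and open diamonds the fit without barcodes with RNA of a second cell type. All but Lamb2 and Lama5 lie below 0 among all members, and the 7 red ones range from -1.21 for Fn1 to -0.38 for Col4a1.

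Of the 15 genes with the largest ratio between members and other endothelium, Slco2a1 and Itm2a fell with age and Selp rose. Slco2a1 was at 410.1, 349.5 and 338 in young and 279, 172 and 233 in aged libraries, all aged libraries lying below the young. It changed by -0.66 ± 0.12 (edgeR adjusted p = 0.00162). Itm2a was at 902, 545 and 698 in young and 634, 303 and 328 in aged libraries and overlapped between ages, since the aged TN library lay inside the young range. It changed by -0.74 ± 0.11 (adjusted p = 3.0e-04). Igfbp7, a secreted binding protein, changed by -0.50 ± 0.07 (adjusted p = 3.1e-04). Slco2a1, Itm2a and Igfbp7 passed without barcodes of 2 types. In the Esm1 or Col13a1 cells alone none of them did (adjusted p = 0.153 for Slco2a1, 0.248 for Itm2a and 0.399 for Igfbp7). Emid1, a matrix protein, was at 64.2, 53.2 and 46.8 in young and 20.8, 12.7 and 13.9 in aged libraries and did not overlap. Its change was -1.72 ± 0.23 in all members (adjusted p = 1.2e-04) and it also passed in the Esm1 or Col13a1 cells alone (adjusted p = 0.00299). Esm1 and Col13a1 themselves did not pass, at -0.06 ± 0.14 and -0.31 ± 0.11.

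Ednrb, which is higher in the Esm1 or Col13a1 cells, was at 676, 721 and 460 in young and 370.2, 278 and 281 in aged libraries. The ages did not overlap, and it changed by -0.96 ± 0.11 (edgeR adjusted p = 3.0e-05). Ntrk2, a neurotrophin receptor, was at 202, 210.2 and 122 in young and 76.6, 71.5 and 47.2 in aged libraries and changed by -1.41 ± 0.14 (adjusted p = 4.4e-06). Kcnk3, a potassium channel, changed by -1.35 ± 0.24, Gja4, a gap junction gene of arterial endothelium, by -0.67 ± 0.14, and Rbp7, a retinol-binding protein of capillary endothelium, by -0.43 ± 0.09. Lgals1 changed by -0.96 ± 0.10, Steap4 by -1.01 ± 0.14 and Tpm2 by -0.95 ± 0.16. These 8 genes passed in all 3 fits, on all members, without barcodes of 2 types and in the Esm1 or Col13a1 cells alone, as did 20 genes in all. They were named for that after their values were seen. Several of them were higher in the members that carried mural cell UMIs, with Ntrk2 at 390.2 CPM there and 16.7 in members of 1 type, Steap4 at 336 and 20.5, and Tpm2 at 339 and 23.04. The fit on the Esm1 or Col13a1 cells alone kept such barcodes, 120 of its 606 cells.

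Fst, which encodes follistatin, an extracellular inhibitor of activins, fell the most after the immunoglobulin gene Igkc among the genes named by rule. It was at 222, 195 and 209 in young and 21.4, 66.9 and 38.9 in aged libraries, and all aged libraries lay below the young. Its log2 fold change was -2.38 ± 0.23 (edgeR adjusted p = 2.3e-06). Most of its RNA lay in members with mural cell UMIs, at 402 CPM against 10.5 in members of 1 type. In the latter it was at 13.8, 23.7 and 23.2 in young and 0.712, 3.34 and 0 in aged libraries, and it still passed (adjusted p = 0.0140).

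Among the 12 largest falls, 6 other genes were at far higher levels in members with mural cell UMIs. Lin7a was at 92.1 CPM in members with mural cell UMIs and 2.51 in members of 1 type, and its log2 fold change was -1.81. Avpr1a, a vasopressin receptor, was at 84.8 and 3.19 CPM, Kcne4 at 80.0 and 3.65, Islr at 67.9 and 4.56, Olfr558 at 66.3 and 3.65, and Coq8a at 70.6 and 7.76. These 6 genes were too low to be tested without the barcodes of 2 types. Of the 7 pericyte genes Pdgfrb and Higd1b fell with age, and of the 5 smooth muscle genes tested Des and Myl9, and none of the 4 passed without those barcodes. Higd1b helped to choose those barcodes. Of 6 fibroblast genes tested 4 fell. Col1a1 was at 250.1, 81.9 and 112 in young and 28.2, 25.4 and 86.1 in aged libraries, Pi16 changed by -2.26, Col3a1 by -1.20 and Clec3b by -1.55. Only Col1a1 of these passed without the barcodes of 2 types (adjusted p = 0.0403), and Pi16 helped to choose those barcodes. The summed level of the 8 fibroblast genes was 1320.4, 447 and 646 in young and 285, 303 and 856 in aged libraries in all members and 478, 378 and 560.1 in young and 251, 267 and 797 in aged libraries in those of 1 type. This sum includes Dcn, which the rule limits, and Pdgfra, Pi16 and Dpp4, which chose barcodes of 2 types. How much of these falls came from RNA of other cells was not tested.

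Among the genes that rose, Aqp1 (chr6:55336432-55348555) had the smallest adjusted p. It was at 353, 683 and 299.8 in young and 1015, 1145 and 978 in aged libraries, and every aged library lay above the young. Its log2 fold change was 1.34 ± 0.12 (edgeR adjusted p = 2.3e-06), and it passed without barcodes of 2 types (0.00422, adjusted p) and in the Esm1 or Col13a1 cells alone (0.00161, adjusted p). Within the latter it was at 67.2, 181 and 54.6 in young and 328, 276 and 314 in aged libraries. Fmo2 was at 109.7, 107 and 84.6 in young and 203, 215 and 189 in aged libraries and changed by 1.04 ± 0.13 (adjusted p = 6.1e-05). Fmo1 was at 66.9, 52.3 and 42.3 in young and 113, 128 and 133 in aged libraries and changed by 1.21 ± 0.17 (adjusted p = 2.0e-04), and it did not pass in the Esm1 or Col13a1 cells alone (adjusted p = 0.0652). For both Fmo genes the ages did not overlap.

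Pltp, Apoe and Scube3 rose as well. Pltp, the phospholipid transfer protein, was at 387, 311 and 241 in young and 587, 504 and 447 in aged libraries and changed by 0.76 ± 0.10 (edgeR adjusted p = 1.5e-04). Apoe, an apolipoprotein, was at 603, 783 and 845 in young and 1089, 1285 and 1428 in aged libraries, without overlap between ages, and changed by 0.81 ± 0.09 (adjusted p = 6.5e-06). Scube3, a secreted glycoprotein, was at 16.7, 10.1 and 14.4 in young and 36.6, 34.6 and 30.6 in aged libraries and changed by 1.35 ± 0.27 (adjusted p = 0.00491). These 3 genes passed in all 3 fits. Of the 13 fatty acid handling genes tested, Cd36, Gpihbp1, Fabp4 and Fabp5 rose with age and none fell, by 0.34 for Fabp4 to 0.62 for Fabp5, and 0 passed without barcodes of 2 types. In the Esm1 or Col13a1 cells alone Fabp4 was at a log2 fold change of -0.24 and Fabp5 of -0.20, neither past the threshold.

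Of the genes through which endothelium binds leukocytes, 11 were tested outside the rule, and Selp, Icam1, Vcam1 and Jam2 rose while Chst2, which adds sulfate to selectin ligands, fell. Vcam1 was at 17.7, 20.3 and 47.7 in young and 33.2, 85.4 and 61.1 in aged libraries, so that the young 14D library lay above the aged TN library. Its log2 fold change was 1.21 ± 0.25 (edgeR adjusted p = 0.00760). Selp, the P-selectin gene, was at 45.6, 88.6 and 82.8 in young and 69.9, 191 and 97.3 in aged libraries and changed by 0.78 ± 0.17, and Icam1 changed by 0.47 ± 0.12. Jam2, a junctional adhesion molecule, changed by 0.43 ± 0.11 without overlap between ages. Without barcodes of 2 types none of the 5 passed (adjusted p = 0.164 for Vcam1, 0.712 for Selp, 0.472 for Icam1, 0.230 for Jam2 and 0.137 for Chst2). The median over the list was -0.04.

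Of 14 chemokine and cytokine genes tested, Il6 and Cxcl9 rose and none fell, with a median of 0.30. Il6 was at 36.3, 33.8 and 66.6 in young and 71.6, 116 and 106 in aged libraries, and the ages did not overlap. It changed by 1.20 ± 0.19 (edgeR adjusted p = 6.9e-04; without barcodes of 2 types 0.0415). It was found in 135 members and at 192 CPM in those with venular genes against 27.2 in the Esm1 or Col13a1 cells. Cxcl9, a chemokine induced by interferon gamma, changed by 1.06 ± 0.26 and did not pass without barcodes of 2 types (adjusted p = 0.0720). Of 9 MHC class I genes tested, H2-K1 rose by 0.38 and B2m by 0.34 on the log2 scale, and of 16 interferon-stimulated genes Iigp1 rose by 0.64. None of H2-K1, B2m and Iigp1 passed without barcodes of 2 types. The inflammatory gene Ubd, a ubiquitin-like modifier, was at 3.72, 2.53 and 6.30 in young and 11.8, 46.1 and 38.9 in aged libraries, with 53 members holding a UMI, and changed by 2.96 ± 0.41 (adjusted p = 2.0e-04).

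Lists in which no tested gene passed with age were Notch (11 genes, median 0.01), BMP and TGF-beta (15, 0.04), junction and caveola genes outside the rule (9, 0.09), AP-1 and stress genes (16, 0.12), shear-responsive factors (6, 0.14), glucocorticoid and clock genes (12, -0.0012), cell cycle (2, 0.02) and MHC class II (3, -1.68). A single gene passed in each of several others. In the VEGF and angiopoietin list it was Angpt2, which fell by 1.07 on the log2 scale, among 13 tested. Ndrg1 rose among 10 glycolysis and hypoxia genes and Peg3 fell among 7 growth-linked imprinted genes. Of the senescence and p53 list, Cdkn1a rose and Igfbp7 fell. Among endothelial markers, 2 of 11 venular genes rose (Selp and Vcam1) and Cpe fell. Of 12 capillary genes Gpihbp1, Cd36, Car4 and Fabp4 rose and Rgcc fell. Gja4 fell among 12 arterial genes, Angpt2 among 7 tip cell genes, and Lyve1 of 2 lymphatic genes tested. Of the genes the study names for fibroblasts in these same samples, 6 were tested, Cd9 and Pltp rose and Itm2a fell. That list was chosen on these samples and is no independent evidence.

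The remaining genes among the 12 largest rises were low in the members. Ptger4, a prostaglandin E2 receptor, was at 22.3, 12.7 and 13.5 in young and 33.8, 55.4 and 38.9 in aged libraries, with no overlap between ages, and changed by 1.39 ± 0.28 (edgeR adjusted p = 0.00543). Samd5 was at 13.9, 10.1 and 8.10 in young and 19.7, 24.2 and 44.5 in aged libraries and was higher in the cells with venular genes, at 66.0 CPM against 1.31 in the Esm1 or Col13a1 cells. Tifa, an adaptor of NF-kappaB signalling, was at 8.37, 20.3 and 9.90 in young and 31.0, 26.5 and 33.3 in aged libraries and changed by 1.26 ± 0.31. Cxcl2, a neutrophil chemokine, was at 2.79, 11.8 and 23.4 in young and 9.02, 53.1 and 41.7 in aged libraries and was found in 38 members. F830016B08Rik was at 10.2, 5.91 and 18.0 in young and 16.9, 36.9 and 41.7 in aged libraries. For the last 2 genes some young libraries lay above the aged TN library. Ptger4, Samd5, Tifa, F830016B08Rik and Retn did not pass without barcodes of 2 types (adjusted p = 0.168 to 0.349), and Cxcl2 was too low to be tested there. Cck, the precursor of cholecystokinin, was among the genes that fell in all 3 fits. It was at 75.3, 97.9 and 40.5 in young and 32.1, 53.1 and 19.5 in aged libraries and had no UMI in the 175 cells with venular genes, against 81.7 CPM in the Esm1 or Col13a1 cells.

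Some changed genes rested on very few barcodes. Ccl5, a chemokine of T and natural killer cells, had 67 UMIs in 1 member of the young 3D library and 130 in 1 member of the aged 3D library, with 3 UMIs in the other members, and it passed both with age (1.52 on the log2 scale) and with temperature. Gzma, a protease of the same cells, had 46 UMIs in 1 member of the young 3D library and 77 in 1 of the aged 3D library and none elsewhere. Igkc, an immunoglobulin gene, had 51 UMIs in 1 young TN member and 93 in 4 young 14D members. The B cell gene Cd79a, which fell with age and changed with temperature, had 10 UMIs in 1 young TN member and 39 in 4 young 14D members. Of 448 Hbb-bs UMIs in the aged 14D library, 99.8% lay in 1 member, and Hbb-bs, Hba-a1 and Hba-a2 all rose with age. Lyz2, a macrophage gene, rose with 19 UMIs in 2 aged TN members, 11 in 1 aged 14D member and 3 in the young TN library. The T cell gene Cd3e, the red cell gene Alas2 and the glial gene Sox10 had no UMI in any member. Leukocyte RNA was not absent, since Ptprc, the gene of CD45, had a UMI in 4 of the 1034 thinned members. At full depth 8 members held at least 3 UMIs of the leukocyte genes that chose barcodes of 2 types. The summed level of the 8 macrophage genes was 27.0 to 125 CPM. The adipocyte genes Car3 and Retn rose with age, and the summed level of 6 adipocyte genes was 267, 208 and 147 in young and 272, 460.2 and 245 in aged libraries. The part of this RNA in other results was not tested.

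**Figure D4:**
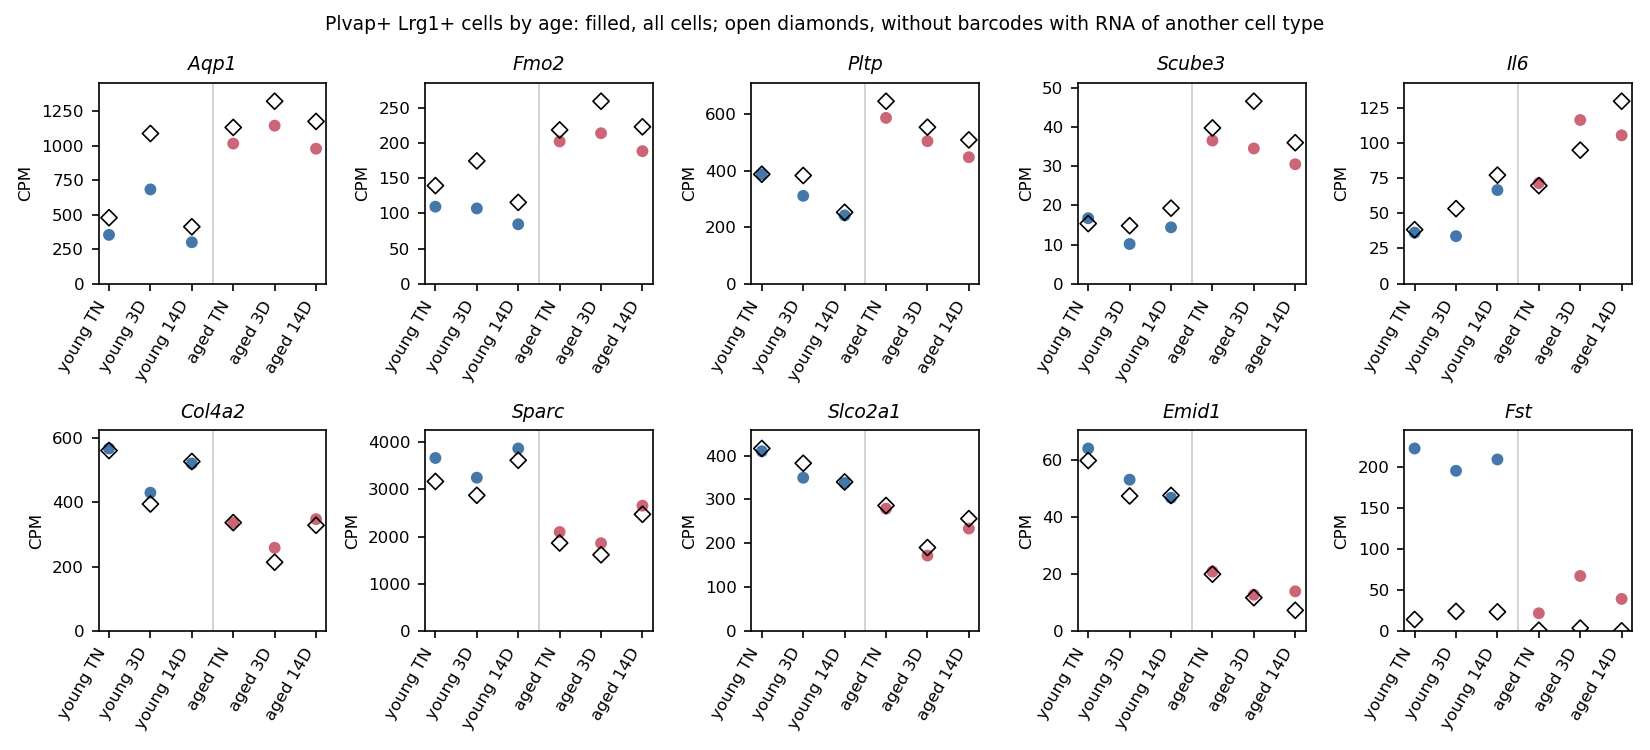
CPM of 10 genes in Plvap+ Lrg1+ cells of each library, with a linear axis from 0; filled points (blue young, red aged) give all members and open diamonds the members without barcodes with RNA of a second cell type. For Aqp1, Fmo2, Pltp, Scube3 and Il6 every aged library lies above the young among all members, and for Col4a2, Sparc, Slco2a1, Emid1 and Fst below.

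Whether the members responded to age differently from other blood endothelial cells was asked in a model of 12 sums, 1 per library and population, which took out the mean of each library. Of 10488 genes 2 passed (0.0191%, 686 at an unadjusted p under 0.05), Fabp5 and Ccl5. Fabp5, a fatty acid-binding protein, was at 542, 607 and 893 in young and 710, 1243 and 1098 in aged libraries in the members, and 2 of the aged values lay above all young ones. In the other blood endothelial cells it was at 1966, 2611 and 3861 in young and 1229, 1836 and 2497 in aged libraries, where the aged value was the lower one at each temperature. The age effects differed by 1.17 ± 0.13 on the log2 scale (SE, edgeR adjusted p = 5.1e-04), and Fabp5 passed in every alternative fit of this difference listed in the closing section, at 1.01 to 1.34. The count of genes was 7 without the young 14D library and 8 without the aged TN or the aged 14D library. In the members the gene was at 1837 CPM in cells with venular genes, 1588 in those with neither and 260.1 in the Esm1 or Col13a1 cells, where its own age effect was -0.20 and did not pass. The parts of these sets moved with age as given above, and their role in the difference was not tested. The difference for Ccl5 rested on the 2 members named before and on its level in other blood endothelial cells, 0.491, 338 and 47.0 in young and 0.542, 0 and 0.656 in aged libraries.

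Plvap and Lrg1 cannot be tested in cells chosen by them, so they were also fitted in all 5054 blood endothelial cells, where 70 of 11169 genes (0.627%) changed with age. That count was 18 without the young 3D library, 41 without the aged 3D library, 205 and 229 without the aged and the young TN library and 498 and 570 without the young and the aged 14D library. Plvap there was at 1534, 1251 and 1380.2 in young and 1169.5, 781 and 514 in aged libraries (CPM scaled with TMM factors), with all aged libraries below the young. Its log2 fold change was -0.82 ± 0.16, and it did not pass (edgeR adjusted p = 0.0683). Lrg1 was at 387, 288 and 361 in young and 338, 202 and 171 in aged libraries and changed by -0.57 ± 0.14 (adjusted p = 0.123), also not past the threshold. Col13a1 changed by -0.73 ± 0.19 (adjusted p = 0.135) and Esm1 by -0.47 ± 0.23 (adjusted p = 0.413). Both Itm2a, at -1.12 ± 0.18, and Slco2a1, at -1.02 ± 0.15, fell there (adjusted p = 0.0354 and 0.0308). In such a sum, fewer Plvap+ Lrg1+ cells and less RNA per cell cannot be told apart. Fst fell by 1.76 (adjusted p = 0.00387) and Aqp1 rose by 0.53 (adjusted p = 0.0318), both past the threshold there too.

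Capillary and lipid uptake genes were higher in the members after cold exposure. Of 9069 genes tested, 98 (1.08%) changed with temperature at an adjusted p under 0.05 (edgeR quasi-likelihood F test over both cold groups with age as a term), 65 (0.717%) with a higher and 33 (0.364%) with a lower mean of the 2 cold fold changes. Without barcodes of 2 types 47 of 7428 genes passed, 41 of which were also among the 98, and in the fits without 1 library the count ran from 28 without the aged 3D library and 40 without the young 3D library to 315 and 339 without the young and the aged 14D library, with 167 without the young TN library. Of 12 capillary genes 6 rose and 0 fell, and the medians of the list were 0.58 at 3D and 0.52 at 14D. Of 13 fatty acid handling genes 5 rose and 0 fell, with medians of 0.50 and 0.48, beside 0.0077 and -0.0034 over all genes tested. Without barcodes of 2 types 5 capillary and 5 fatty acid handling genes passed. In the Esm1 or Col13a1 cells alone 1 gene of each list passed, which was Fabp4 in both. In the members all 14 fatty acid handling genes summed to 20473, 32596 and 30755 in young and 25952, 38526 and 38522 in aged libraries. Fabp4, given below, made up most of each of these sums. In the other blood endothelial cells the 14 genes summed to 58815, 68326 and 68812 in young and 63724, 84098 and 75048 in aged libraries. The capillary genes summed there to 60878, 70384 and 69086 in young and 66949, 87505 and 76471 in aged libraries. Whether the 2 populations differed in their change with temperature was not tested. Given below are the young and then the aged library at each temperature.

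Fabp4 (chr3:10204088-10208576) was at 16391 and 20954 at TN, 26765 and 30960.2 after 3 days and 24996 and 31644 after 14 days, so that every cold library lay above both TN libraries. Its log2 fold changes were 0.69 at 3D and 0.64 at 14D (edgeR adjusted p = 1.0e-05), and it passed in the Esm1 or Col13a1 cells alone (adjusted p = 0.00527). Cd36 was at 1676 and 2068 at TN, 2561 and 3249 after 3 days and 2213 and 2890.2 after 14 days (adjusted p = 4.5e-04). Gpihbp1 was at 934 and 1373 at TN, 1672 and 2004 after 3 days and 1582 and 1689.6 after 14 days (adjusted p = 0.00112). For these genes too the cold libraries did not overlap with TN, and both passed without barcodes of 2 types but did not in the Esm1 or Col13a1 cells alone (adjusted p = 0.169 and 0.362). Timp4, an inhibitor of matrix metalloproteinases, was at 151 and 201 at TN, 337 and 422 after 3 days and 291 and 303 after 14 days (adjusted p = 1.1e-04). Car4 was at 28.8 and 53.5 at TN, 82.7 and 171 after 3 days and 117 and 150.1 after 14 days, with fold changes of 1.65 and 1.82 (adjusted p = 3.3e-05). Angptl4, which inhibits lipoprotein lipase, was higher at 14D, by 0.86 beside 0.19 at 3D, and Btnl9 rose by 0.60 and 0.67.

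Of 11 venular genes tested, Ackr1, Selp and Sele were higher in the cold and 0 lower, and the medians of the list were 0.20 at 3D and -0.07 at 14D. Of 11 leukocyte adhesion genes, Selp, Sele and Icam1 were higher and Chst2 lower, with medians of -0.07 and 0.03. Selp was at 45.6 and 69.9 at TN, 88.6 and 191 after 3 days and 82.8 and 97.3 after 14 days (edgeR adjusted p = 0.00184). Sele, the E-selectin gene that endothelium makes on stimulation, was at 9.30 and 14.1 at TN, 27.0 and 56.5 after 3 days and 12.6 and 13.9 after 14 days, the aged 3D library being the highest (adjusted p = 0.00273). It was found in 36 members. Ackr1 was at 29.8 and 56.3 at TN, 43.1 and 78.4 after 3 days and 105 and 91.7 after 14 days (adjusted p = 0.0108) and was found in 55 members. Icam1 was at 180.4 and 211 at TN, 237 and 396 after 3 days and 289 and 353 after 14 days (adjusted p = 0.00988). All 4 passed without barcodes of 2 types. Selp, Sele and Ackr1 were part of the sorting into sets and have no value in the Esm1 or Col13a1 cells, and Icam1 did not pass there (adjusted p = 0.0922). Of the 14 chemokine and cytokine genes tested Ackr1 was the one that passed. Stc1, a secreted glycoprotein, was at 54.9 and 49.0 at TN, 151 and 104 after 3 days and 113 and 63.9 after 14 days and passed in all 3 fits (adjusted p = 9.2e-04). Among arterial genes, Sema3g, Fbln5 and Gja4 rose of 12 tested, with Fbln5, an elastic fibre protein, at 0.43 and 1.01 (adjusted p = 0.00115).

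Immediate early and clock-linked genes formed another group. Of 16 AP-1 and stress genes Fosb, Junb, Ier2, Nr4a1 and Zfp36 rose and 0 fell, by 0.54 and 0.11 for Nr4a1 and 0.55 and 0.45 for Zfp36, and Zfp36 alone passed without barcodes of 2 types. Of 12 glucocorticoid and clock genes Dbp, Nr1d2 and Zbtb16 rose. Dbp, a clock output factor whose level follows the time of day, was at 11.2 and 13.0 at TN, 54.9 and 46.1 after 3 days and 9.00 and 16.7 after 14 days, with both 3D libraries above all others (adjusted p = 1.8e-04). Zbtb16 rose by 0.96 and 1.06. The nuclear long noncoding RNA Neat1 was at 671 and 529.6 at TN, 1174 and 1351 after 3 days and 1033 and 1245 after 14 days and passed in all 3 fits (edgeR adjusted p = 3.4e-05). Pfkfb3, which drives glycolysis, rose by 1.35 and 0.99 but not past the threshold without barcodes of 2 types (adjusted p = 0.265). Bst2 and Gbp2 rose of 16 interferon-stimulated genes. The transcript 8430408G22Rik was at 140.4 and 125 at TN, 254 and 178 after 3 days and 357 and 322 after 14 days, Cyp4b1, a fatty acid hydroxylase, at 138 and 135 at TN, 241 and 256 after 3 days and 194 and 195 after 14 days and Cst3, a protease inhibitor, at 4456 and 6439 at TN, 6525 and 8885 after 3 days and 6667 and 6564 after 14 days, and all 3 passed in all 3 fits. Tmem182 rose by 1.26 and 1.17, and Cxcl2 by 2.44 and 2.66 with 38 members holding a UMI.

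Several genes fell in the cold, among them Esm1, Itm2a, Gm5 and Penk, which were higher in the Esm1 or Col13a1 cells than in those with venular genes. The part of members with Esm1 or Col13a1, given above, was lower in both 3D libraries than in the TN library of the same age. Esm1 was at 248 and 290.2 at TN, 124 and 100.4 after 3 days and 227 and 169.5 after 14 days, lowest in both 3D libraries. Its log2 fold changes were -1.21 at 3D and -0.38 at 14D (edgeR adjusted p = 4.9e-04). Itm2a was at 902 and 634 at TN, 545 and 303 after 3 days and 698 and 328 after 14 days (adjusted p = 0.00149), and the young 14D library lay above the aged TN library. Gm5 was at 281 and 300.3 at TN, 143 and 135 after 3 days and 159 and 161 after 14 days (adjusted p = 3.1e-04) and Penk at 179 and 363 at TN, 42.2 and 104 after 3 days and 131 and 58.4 after 14 days (adjusted p = 0.00110). Ctgf, a matricellular protein and a known target of mechanical signalling through YAP, was at 113 and 131 at TN, 48.1 and 28.8 after 3 days and 48.6 and 66.7 after 14 days, with fold changes of -1.57 and -1.13 (adjusted p = 3.1e-04). Pam, which amidates peptides, was at 525 and 451 at TN, 253 and 195 after 3 days and 321 and 339 after 14 days (adjusted p = 1.8e-04). In the Esm1 or Col13a1 cells alone Itm2a, Penk, Ctgf, Pam and Esm1 passed as well, Esm1 being one of the genes that chose those cells, and Gm5 did not (adjusted p = 0.0671). Pcsk1, a peptide-processing protease, fell by 2.33 at 3D and was at -0.28 at 14D. Gas7, Ces2e, Ifi44 and Chst2, also among the 12 largest falls, fell at 3D by 0.94 for Chst2 to 1.15 for Ces2e. Igfbp7 fell at both times, by 0.45 and 0.30.

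Dlk1, Myh11 and Acta2 were the other large falls, and of the mural cell genes tested Rgs5 was higher at 3D, by 0.86, while Myh11 and Acta2 fell. Dlk1, an inhibitor of adipogenesis, was at 85.8 CPM in members with mural cell UMIs and 0.912 in those of 1 type, and Acta2 at 275 and 22.6. Myh11 was at 88.5 and 3.88, but it helped to choose the barcodes with mural cell UMIs, so its difference follows from the sorting. Acta2 did not pass without barcodes of 2 types (adjusted p = 0.236), and the other 2 were too low to be tested there. No basement membrane, Notch, BMP and TGF-beta, coagulation, MHC class I or class II, junction or shear-responsive gene passed with temperature. The globin genes Hbb-bs, Hba-a1 and Hba-a2 passed with temperature too, with nearly all Hbb-bs UMIs of the aged 14D library in 1 barcode, as did Ccl5 and Gzma.

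**Figure D5:**
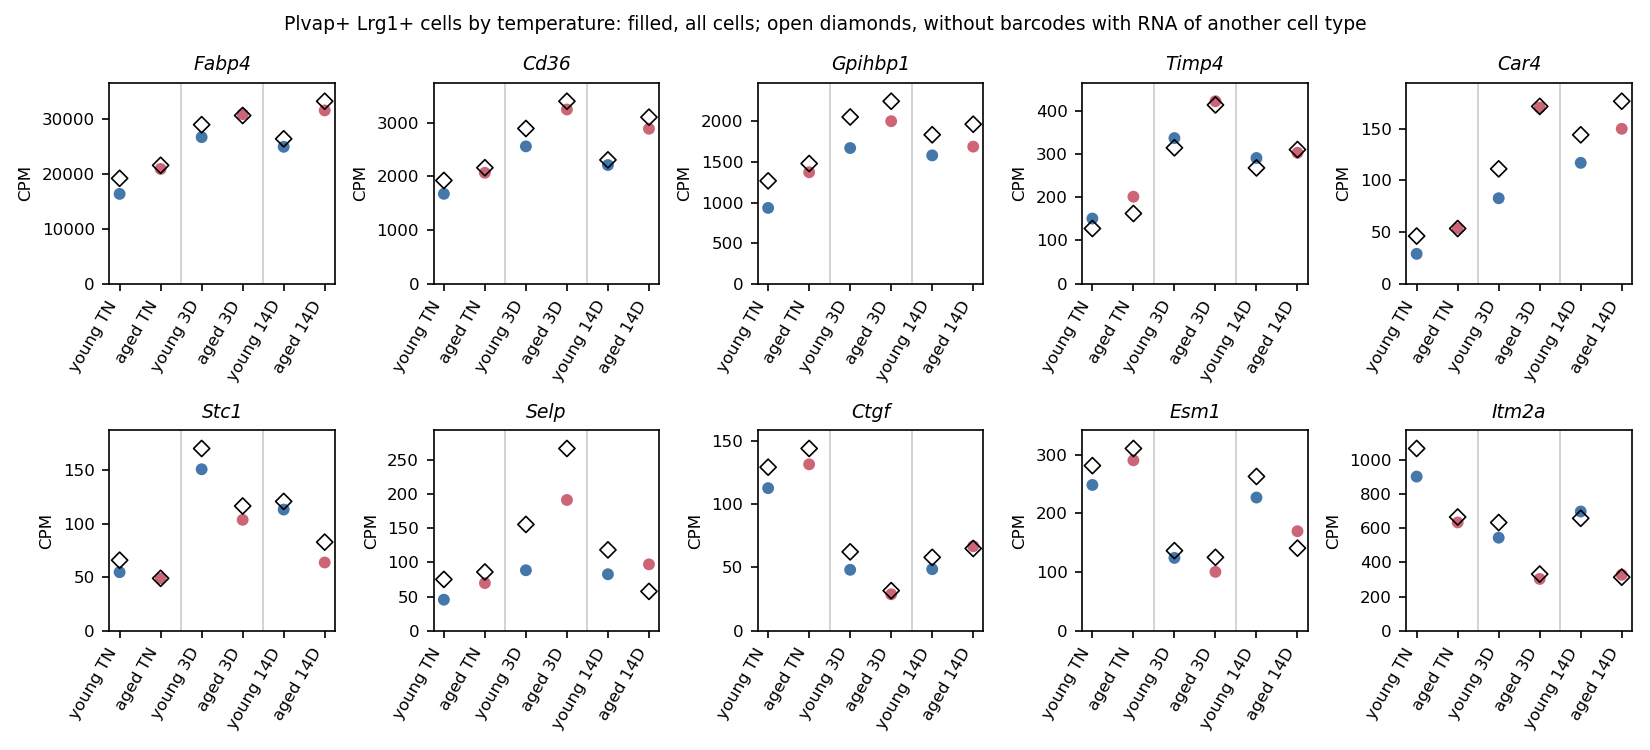
CPM of 10 genes in Plvap+ Lrg1+ cells of each library, ordered TN, 3D and 14D with young (blue) before aged (red) and a linear axis from 0; filled points give all members and open diamonds those without barcodes with RNA of a second cell type. Fabp4, Cd36, Gpihbp1, Timp4 and Car4 lie higher in all 4 cold libraries than in both TN libraries, and Ctgf lies lower.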

How the data were processed

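Stromal vascular cells of mouse iWAT were measured by droplet single-cell RNA sequencing (10x Genomics, 3' libraries) in 6 libraries, 1 per age and temperature. The deposited matrices hold raw UMI counts per gene and barcode, which the authors made with Cell Ranger on mm10 (GRCm38) before their own filtering in Seurat with R 4.1.1, per the labels. No cell annotation was used. The members and the gene lists were chosen with earlier results of these data known. Barcodes were selected by the rule given in the opening of the report, and their counts were summed per library and tested with edgeR 4.0.16 in R 4.3.3 (TMM factors, filterByExpr, quasi-likelihood F tests, Benjamini-Hochberg adjustment over all genes tested, threshold 0.05). Every adjusted p comes from edgeR unless DESeq2 1.42.0, an alternative, is named. The standard error of a log2 fold change was taken from the F statistic. Shares were compared by exact permutation tests and carry exact binomial intervals (scipy 1.17.1), which, like the floor of 3 counts, cover counting error only. Thinning drew 2000 UMIs per cell without replacement. The scripts were tested on simulated counts. Genes of the rule and mitochondrial genes were left out of the tests of lists and of the named genes, while summed levels of lists kept genes of the rule.

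The 12 largest rises and falls of at least 20 CPM with the same direction in each stratum were named, as was each called gene of a list. Ubd, Apoe, Fmo2, Cck, Pam, Neat1 and the genes described as past the threshold in all 3 fits were named after their values were seen. Alternatives were DESeq2, RLE in place of TMM factors, all genes with a UMI, no second term, each library left out, at least 5 UMIs of Plvap and Lrg1, under 5% mitochondrial UMIs, 63 thinned members per library and no barcodes of 2 types. Not all of them were run for the difference and for all blood endothelial cells. The Esm1 or Col13a1 cells alone, the shares with subset genes, and the stricter cell limits for the difference, for all blood endothelial cells and for shares without barcodes of 2 types were chosen after seeing the data. A few of the genes that this rule names are not reported here.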

Additional observations from a re-analysis of the deposited data

Results flagged for a closer look

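The age effect differed between Plvap+ Lrg1+ cells and other blood endothelial cells for 2 genes, by a test of the difference itself. For Fabp5 the difference was 1.17 on the log2 scale, higher with age in the members than in the others. For Ccl5 it was 9.498, with 197 of the 200 UMIs of the members in 2 barcodes. The Ccl5 difference was 4.11 without the aged 3D library and 7.26 with DESeq2, neither past the threshold.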

How the results depend on the processing

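The fits did not test the same number of genes. Of 9069 genes, 288 changed with age in Plvap+ Lrg1+ cells. The count was 31 of 4497 genes with an adjusted p from DESeq2, 74 of 8648 with no temperature term and 57 of 7402 under 5% mitochondrial UMIs. It was 36 of 7428 without barcodes of 2 types, 117 of 8187 in the Esm1 or Col13a1 cells alone and 0 of 2617 with 63 thinned members per library. Without 1 library it ran from 70 (aged 3D) and 72 (young 3D) to 446 (aged 14D) and 451 (young 14D). For temperature, 98 of 9069 genes became 16 of 981 with an adjusted p from DESeq2, 220 of 16406 with no filter on low counts and 2 of 9069 with no age term. The count was 1 of 2617 with thinned members, 47 of 7428 without barcodes of 2 types, 47 of 7402 under 5% mitochondrial UMIs and 44 of 8187 in the Esm1 or Col13a1 cells. Without 1 library it was 28 (aged 3D), 40 (young 3D), 167 (young TN), 315 (young 14D) and 339 (aged 14D). The 2 of 10488 genes of the difference became 80 of 18312 with no filter and 57 of 10488 with a temperature by population term. They became 11 of 10499 at 5 UMIs of Plvap and Lrg1 or more and 1 of 9749 without barcodes of 2 types. Leaving out 1 library gave 2 (young TN) to 8 (aged TN or aged 14D), with 7 for young 14D. In all blood endothelial cells, 70 genes became 11 with no temperature term, and 18 (young 3D), 41 (aged 3D), 205 (aged TN), 229 (young TN), 498 (young 14D) and 570 (aged 14D) without 1 library. The difference in share was -7.31 points, -9.52 to -5.35 without 1 library, and 0.120 points over all barcodes. The causes of these moves were not tested.

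Some named genes changed direction, in log2. With age in the Esm1 or Col13a1 cells these were Car3 (-0.99), Car4 (-0.62), Fabp4 (-0.24), Fabp5 (-0.20), Hba-a2 (-0.12) and Hbb-bs (-0.21), and in thinned members Fabp5 (-0.082) and Icam1 (-0.069). At 5 UMIs of Plvap and Lrg1 or more, Hba-a1 (-0.17), Hba-a2 (-0.44) and Hbb-bs (-0.30) turned. Without 1 library Hba-a1 ran from -0.22 to 5.87, Hba-a2 from -0.55 to 5.31 and Hbb-bs from -0.32 to 5.29. With temperature Cd79a turned with no age term (0.30) and ran from -0.75 to 1.77 without 1 library. In the Esm1 or Col13a1 cells Hba-a1 (-1.62), Hba-a2 (-1.37), Hbb-bs (-1.53) and Sema3g (-0.33) turned, and at 5 UMIs or more Hba-a1 (-1.78), Hba-a2 (-0.82) and Hbb-bs (-0.64). Without 1 library Hba-a1 ran from -1.65 to 4.98, Hba-a2 from -0.80 to 5.13 and Hbb-bs from -0.52 to 4.99. Of the other values of named genes under an alternative, 562 for age, 427 for temperature and 23 for the difference kept direction and side of the threshold, and 349, 255 and 2 kept the direction but no longer passed.

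The labels carry no replicate numbers to pair libraries by, and the temperature term compared aged with young libraries within each temperature. With 65 to 344 members per library, low genes rest on few cells, and intervals cover counting error only. A lone library of a stratum is assumed to vary like the others.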
